A study of Mus musculus with 192 samples.

Results

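The genes described here carry out MHC class I antigen presentation. They are B2m, H2-K1, H2-D1, Tap1, Tap2, Tapbp, Psmb8, Psmb9, Psmb10 and Nlrc5. Of these 10 genes, 9 are among the 11571 RefSeq genes that had a start-site peak on their own strand at a promoter in these cells, and Nlrc5 is not. They were chosen by name for their place in the pathway. Transcript starts were counted for a gene when a peak lay on its strand, in a 150 bp window that the deposited RefSeq table names for the gene and places within 1000 bp of its annotated start. That gave 253 windows for 9 of the 10 genes. The table holds 15 windows named Nlrc5, all of them farther from its start.

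The cells were single mouse embryonic fibroblasts of strain C57BL/6, connective-tissue cells grown from embryos. All of them received interferon-beta, a secreted antiviral protein, at 100 U/ml for 1 h. The labels divide them into 96 naïve cells and 96 cells that had been pretreated before this exposure, and do not say with what, for how long or how long before. No cell without interferon-beta was among the samples, so the naïve group had itself been exposed for 1 h. No animal, culture or plate is named, so each group counts as 1 sample of many cells. No test between the groups was run, every interval covers counting error only, and the group and any culture, plate or library batch cannot be told apart.

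Class I molecules display peptides from inside the cell to cytotoxic T cells and to natural killer cells. The proteasome cuts proteins into peptides, the TAP transporter carries the peptides into the endoplasmic reticulum, tapasin and other chaperones hold an empty class I molecule there, and a heavy chain, beta-2-microglobulin and peptide leave together for the cell surface. Interferons are known to raise most of these genes, through interferon-stimulated response elements and gamma-activated sequences, and class I promoters also carry an NF-kB site and a module of boxes bound by RFX, CREB/ATF and NF-Y proteins, at which Nlrc5 acts as a transactivator. Some of the proteasome genes encode catalytic subunits that replace the constitutive ones in the immunoproteasome.

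The promoters of B2m, both heavy chain genes and Psmb9 are printed because most or many of these genes' transcripts began inside or at the edge of these stretches. The sequences are those of RefSeq on build GRCm38.p6, 5′ to 3′ on the gene's strand, from 250 bases before to 50 after the annotated start. Capitals mark matches to 7 motifs on either strand. The windows are B2m at chr2:122147437-122147736 (+ strand), H2-D1 at chr17:35262844-35263143 (+), H2-K1 at chr17:34000284-34000583 (−) and Psmb9 at chr17:34187281-34187580 (−).
B2m: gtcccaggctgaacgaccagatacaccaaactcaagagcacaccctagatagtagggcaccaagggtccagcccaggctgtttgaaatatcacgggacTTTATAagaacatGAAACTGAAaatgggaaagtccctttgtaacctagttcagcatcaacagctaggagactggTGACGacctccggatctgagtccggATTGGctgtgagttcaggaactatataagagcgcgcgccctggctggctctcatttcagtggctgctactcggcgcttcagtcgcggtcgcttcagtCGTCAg
H2-D1: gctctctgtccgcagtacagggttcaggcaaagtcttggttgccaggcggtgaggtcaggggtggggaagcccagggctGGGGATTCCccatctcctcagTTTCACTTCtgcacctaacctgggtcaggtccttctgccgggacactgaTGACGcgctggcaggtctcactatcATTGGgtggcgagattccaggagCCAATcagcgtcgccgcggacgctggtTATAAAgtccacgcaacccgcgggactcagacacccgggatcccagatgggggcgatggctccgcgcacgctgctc
H2-K1: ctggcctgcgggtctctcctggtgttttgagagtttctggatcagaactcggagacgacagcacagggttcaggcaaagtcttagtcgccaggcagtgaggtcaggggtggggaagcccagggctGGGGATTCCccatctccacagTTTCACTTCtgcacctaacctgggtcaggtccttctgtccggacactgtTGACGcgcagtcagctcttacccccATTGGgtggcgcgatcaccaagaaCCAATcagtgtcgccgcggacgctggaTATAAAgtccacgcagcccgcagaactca
Psmb9: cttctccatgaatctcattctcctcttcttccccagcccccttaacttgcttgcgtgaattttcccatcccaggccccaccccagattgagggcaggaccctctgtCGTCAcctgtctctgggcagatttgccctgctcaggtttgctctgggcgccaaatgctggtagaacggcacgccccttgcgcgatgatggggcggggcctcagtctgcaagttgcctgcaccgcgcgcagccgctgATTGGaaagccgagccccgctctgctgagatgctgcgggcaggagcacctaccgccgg

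The RefSeq table held promoters for 8 of the 10 genes, and Tap2 and Nlrc5 were the ones without an entry. The letters searched were GAAANNGAA and GAANNGAAA, which are overlapping forms of the interferon-stimulated response element, TTCNNNGAA for a gamma-activated sequence, GGGNNTTCC for an NF-kB site, TGACG for a CREB/ATF site, CCAAT for an NF-Y site and TATAAA for a TATA box. Of all 32851 promoters of this length they were found in 8.56%, 7.52%, 8.30%, 5.82%, 20.8%, 37.4% and 13.6%, in the same order, and of the 8 class I promoters in 1, 2, 1, 2, 5, 6 and 4. Positions are counted from the annotated start, and a match is a run of letters, not a bound site. B2m held GAAACTGAA at −139, TGACG at −78 and ATTGG, the reverse of CCAAT, at −53. H2-D1 held GGGGATTCC at −171, TTTCACTTC, the reverse of GAANNGAAA, at −150, TGACG at −101 and TATAAA at −26. H2-K1 held the same 4 matches in the same order, at −125, −104, −55 and +22. RefSeq gives H2-K1 a second start, from which the same TATAAA lies at +36. The promoter of Psmb9 is shared with Tap1, which runs the other way: their annotated starts lie 226 bp apart and their windows overlap by 275 bp. Psmb9 held CGTCA, the reverse of TGACG, at −144 and ATTGG at −8, and Tap1 held the same letters seen from its own side. Psmb8 held TTCCCAGAA at −97, but its transcripts began downstream of this window, as described below.

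After cells with under 10% of the median total were left out, 92 naïve and 85 pretreated cells remained. They held medians of 2305627.5 tags (305066 to 3857034) and 2650490.0 tags (502374 to 13174313), where a tag is 1 sequenced 5′ end and not a counted molecule. Levels are given as CPM, tags per 1000000 tags of the cell or of all kept cells of a group. Per the file headers a peak had to reach 20 CPM in its cell, though naïve cell 77 listed Psmb10 at 18.97. A gene without a peak is therefore called listed at 0, and a group at 0 has no ratio. Some fibroblast markers were present in every kept cell, and together they summed to 4472 and 5705 CPM in naïve and pretreated cells. Sparc alone gave 2958 and 3817 of these. Of 14 fibroblast markers 1 was at 0 in all naïve and 2 in all pretreated cells, Lum in both. Thy1 was listed in 1 naïve and 0 pretreated cells, Dcn in 3 and 1 and Pdgfra in 10 and 6. Blood cell markers summed to 10.1 and 1.68 and were at 0 in 80 of 92 and 82 of 85 cells. Of 12 blood markers 8 were at 0 in all naïve cells and 11 in all pretreated cells, Ptprc among them, and all 6 epithelial markers were at 0 in both groups. Of 5 endothelial markers all were at 0 in naïve cells and 4 in pretreated cells, whose 1 peak of Kdr gave 2.76 CPM.

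The class I genes stood far higher in pretreated cells. Together they took up 0.0379% of all tags in naïve cells and 0.435% in pretreated cells, or 379 and 4348 CPM. In single naïve cells the sum ran from 0 through a median of 309 to 2206 CPM, and in pretreated cells from 726 through 4536 to 8648. The ranges overlapped, but the median pretreated cell lay above the highest naïve cell. Of the 10 genes 9 reached 10 CPM in at least 1 group, and 8 of these had tags in both groups and so a ratio. H2-K1 and Tap1 were under 10 CPM in naïve cells (5.51 and 2.15). Both thus entered only through pretreated cells and were bound to be higher there. The counts and the median below include both, and the same minimum was applied to all genes. Of these 8 genes 7 were at least 2-fold higher in pretreated cells, against 30% of all 5048 genes with a ratio. The same 7 were at least 4-fold higher, against 10.7% of all genes, and 0 were at least 2-fold lower, against 11.4%. The median log2 ratio of the 8, pretreated over naïve, was 3.72, where that of all 5048 genes was 0.45 with quartiles of −0.28 and 1.18. Ranking Tap2, which had no ratio because it was listed at 0 in naïve cells, above the others moved the median to 4.22. A scaling by the median of ratios in place of the header totals lowered every log2 ratio by 0.22.

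**Figure D1:**
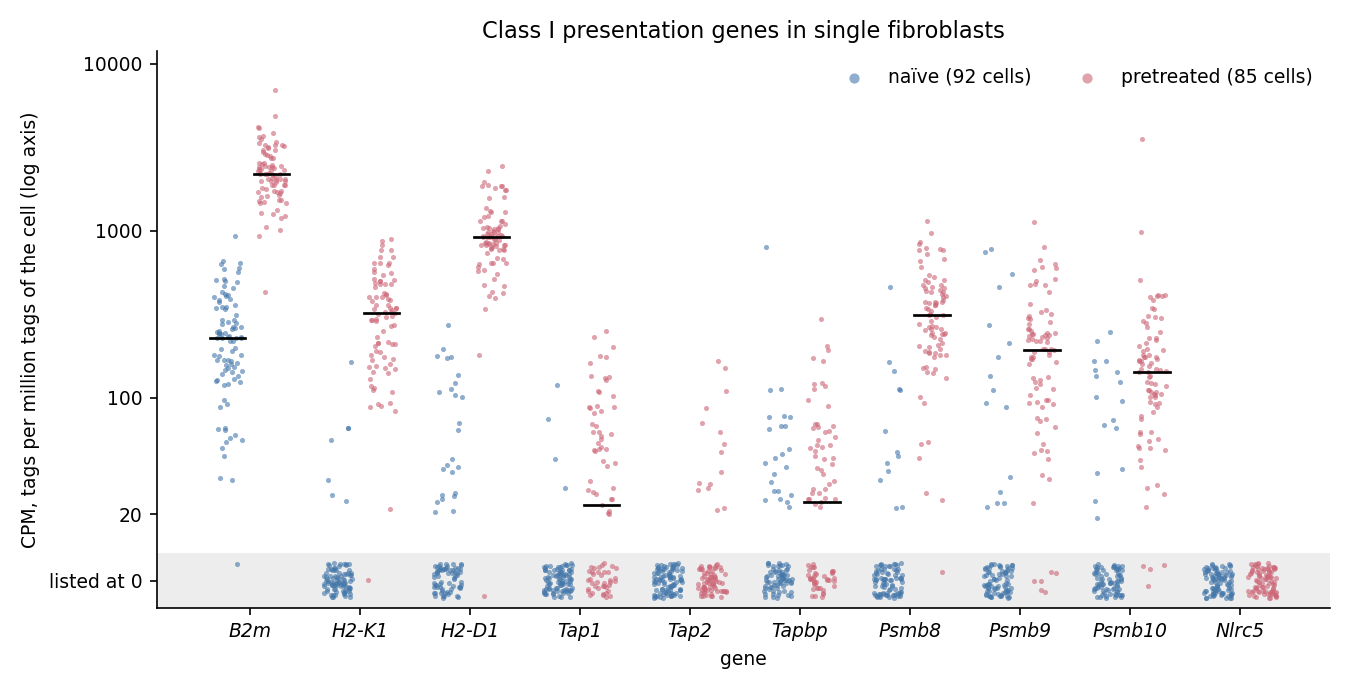
Each point is 1 cell, placed by its CPM on a log axis, for the 10 genes in 92 naïve cells (blue) and 85 pretreated cells (red). Black bars are group medians above 0, and the grey band holds cells in which the gene was listed at 0. For B2m both groups fill the upper part and are shifted against each other (medians 229 and 2205), while for H2-K1, H2-D1 and Psmb8 most naïve cells sit in the grey band and 84 of 85 pretreated cells lie above it.

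B2m encodes beta-2-microglobulin, the invariant light chain of every class I molecule. It was the most abundant of the 10 in both groups, and the only gene that nearly every naïve cell listed. Its level was 251 CPM (249 to 253) over naïve cells and 2288 (2282 to 2293) over pretreated cells. Naïve cells ran from 0 through a median of 229 to 929 CPM, and pretreated cells from 429 through 2205 to 6974. The groups overlapped little: 83 of the 85 pretreated cells lay above the highest naïve cell. The log2 ratio was 3.19 (3.17 to 3.20), a 9.11-fold difference. The percent of cells listing B2m hardly differed, 91 of 92 and 85 of 85, so this difference lay in the amount per cell.

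H2-K1 and H2-D1 encode the classical heavy chains K and D, which bind the peptide. H2-K1 was listed in 7 of 92 naïve cells and 84 of 85 pretreated cells. Its level was 5.51 CPM (5.20 to 5.85) in naïve cells, whose highest cell had 164, and 326 (324 to 328) in pretreated cells, which ran from 0 through 321 to 892. Thus 66 of 85 pretreated cells stood above the highest naïve cell, and the log2 ratio was 5.89 (5.80 to 5.97), at the 99.9th percentile of all genes with a ratio. Naïve cell 22 held 45.4% of the naïve H2-K1 tags, and without the highest cell of each group (naïve cell 22, pretreated cell 28) the log2 ratio was 6.67.

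H2-D1 was listed in 25 naïve cells and 84 pretreated cells. Its level was 23.9 CPM (23.2 to 24.6) against 954 (950.3 to 957). The highest naïve cell had 271 CPM, and pretreated cells ran from 0 through 917 to 2440.4. All but 2 of the pretreated cells, 83 of 85, lay above every naïve cell. The log2 ratio was 5.32 (5.28 to 5.36), a 39.9-fold difference. Class I heavy chain genes are near copies of each other: over the first 150 transcript bases H2-K1 matched H2-D1 at 98.7% identity and 17 genes in all at 95% or more over at least 75 bases, and for H2-D1 the nearest other gene was H2-Q2 at 94.6%. How the aligner placed such reads is not given in the sources used here, so the split between the heavy chain genes is uncertain. The deposited tables also name windows in the H2-D1 body H2-L or LOC547349, which held a further 39.01 CPM in naïve and 182 in pretreated cells. The GENCODE table names only windows near the 3′ end H2-D1 and gave a log2 ratio of 2.85.

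H2-K1 and H2-D1 together made up 7.75% of the 10 genes' tags in naïve and 29.4% in pretreated cells, and B2m 66.2% and 52.6%. Across pretreated cells the levels of the 3 genes were only loosely related. Over the 84 pretreated cells listing both genes, log2 levels of H2-K1 and H2-D1 had a Pearson r of 0.34 and a Spearman rho of 0.33. For B2m with H2-K1 these were 0.19 and 0.13, and for B2m with H2-D1 0.05 and 0.14. Both genes of a pair share the cell's library and total, and these values are descriptions.

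Tap1 and Tap2 encode the partner chains of the peptide transporter. Tap1 was listed in 4 of 92 naïve and 46 of 85 pretreated cells, with 2.15 (1.96 to 2.37) and 40.1 (39.3 to 40.8) CPM. The highest naïve cell had 118 CPM, while pretreated cells ran from 0 through 22.9 to 253. Only 10 pretreated cells exceeded the highest naïve cell. Cells with a peak had medians of 58.8 CPM over the 4 naïve and 61.2 over the 46 pretreated cells. Since a peak had to reach about 20 CPM, these medians cannot separate a difference in level from one in how many cells listed Tap1. The log2 ratio was 4.22 (4.08 to 4.36). Naïve cell 28 held 49.8% of the naïve tags, and the log2 ratio without the highest cell of each group (naïve cell 28, pretreated cell 88) was 4.91. Over windows at distances from the start that both groups listed, the log2 ratio was 0.29. In the odd-numbered naïve cells Tap1 was listed at 0.

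Tap2 was listed at 0 in all 92 naïve cells and had a peak in 15 of the 85 pretreated cells (17.6%, 10.2% to 27.4%). Its pretreated level was 10.7 CPM (10.3 to 11.1), just above the 10 needed to enter the comparison, and single cells reached 165. It had no ratio.

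Tapbp encodes tapasin, which bridges TAP and the empty class I molecule. It was the only gene of the 8 without a 2-fold difference, with naïve cells at 25.1 CPM (24.4 to 25.8) and pretreated cells at 34.5 (33.9 to 35.2). The cells listing it were 23 of 92 and 45 of 85. Naïve cells reached 802 CPM and pretreated cells 297, so no pretreated cell lay above the highest naïve cell. The log2 ratio was 0.46 (0.41 to 0.51), at the 50.5th percentile of all genes. This value rests on naïve cell 73, which held 54.9% of the naïve tags: without the highest cell of each group (also pretreated cell 74) the log2 ratio was 1.40. Over windows at distances from the start that both groups listed, the log2 ratio turned to −0.29. Zbtb22 lies just upstream on the same strand and shares 88 bases with the first 150 of a Tapbp transcript, so some tags near this start may belong to either gene.

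Psmb8, Psmb9 and Psmb10 encode the inducible catalytic subunits beta-5i, beta-1i and beta-2i. Psmb8 was listed in 13 of 92 naïve and 84 of 85 pretreated cells, at 15.3 (14.7 to 15.8) and 311 (309 to 313) CPM. Naïve cells reached 458 CPM, and pretreated cells ran from 0 through 313 to 1144. The log2 ratio was 4.35 (4.30 to 4.40), a 20.4-fold difference, although only 20 of 85 pretreated cells lay above the single highest naïve cell. That cell, naïve cell 78, held 42.2% of the naïve Psmb8 tags, and without the highest cell of each group (also pretreated cell 88) the log2 ratio was 5.05.

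Psmb9 was listed in 16 naïve and 79 pretreated cells, at 36.5 (35.7 to 37.4) and 199.7 (198 to 201) CPM. Its few naïve cells were high: where listed, the naïve median was 123 CPM and the highest 775, against 197 and 1124 in pretreated cells. Only 2 pretreated cells exceeded the highest naïve cell. The log2 ratio was 2.45 (2.42 to 2.49), the second smallest of the 8. It differed between subsets of cells, with 6.36 over odd-numbered and 1.16 over even-numbered cells.

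Psmb10 was listed in 17 naïve and 81 pretreated cells, at 19.8 (19.2 to 20.4) and 184 (183 to 186) CPM. The highest naïve cell had 247 CPM, and pretreated cells ran from 0 through 143 to 3563. There were 17 pretreated cells above the highest naïve cell, and the log2 ratio was 3.22 (3.17 to 3.27). Since its transcripts began more than 200 bp downstream of the annotated start, keeping only windows within 200 bp left few tags and gave 0.55.

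Nlrc5, the transactivator of class I genes, was listed at 0 at its start in all cells of both groups. Peaks farther than 1000 bp from its start, on its strand, held 817 tags in 4 naïve cells and 610 tags in 7 pretreated cells. No level at its promoter could therefore be compared.

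**Figure D2:**
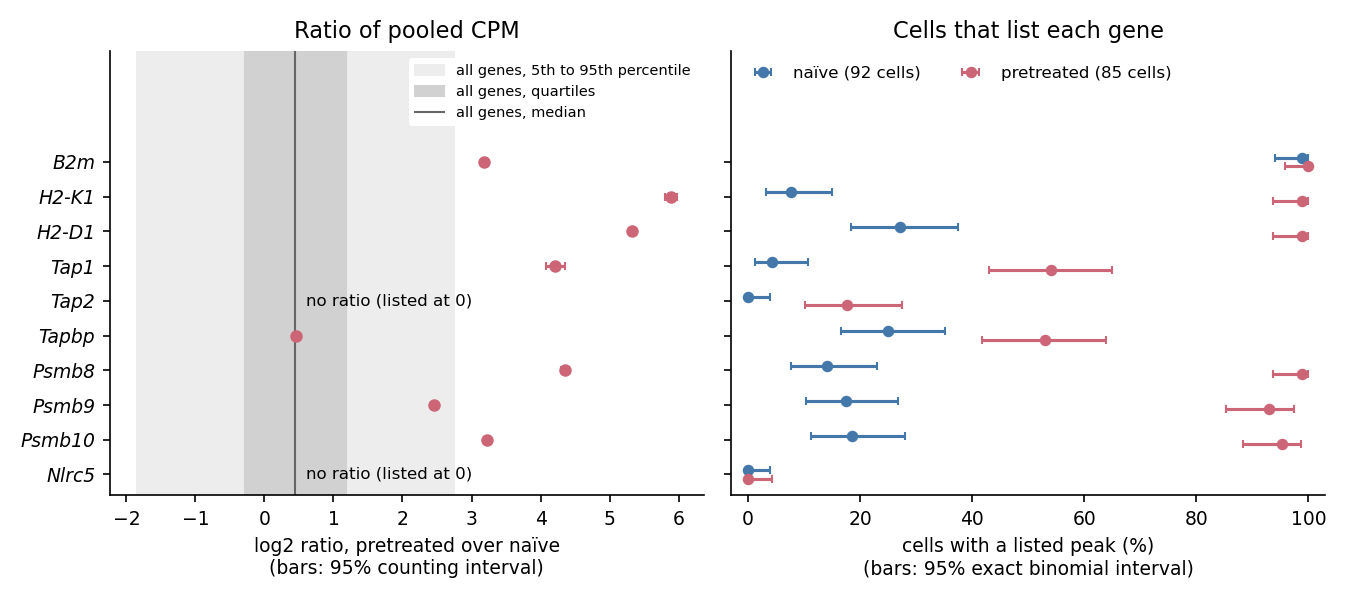
Left, log2 ratio of pooled CPM, pretreated over naïve, for each gene with its 95% counting interval, over the 5th to 95th percentile (light grey), quartiles (grey) and median (line) of 5048 genes. Right, percent of the 92 naïve (blue) and 85 pretreated (red) cells listing each gene, with exact binomial intervals; Tapbp lies on the median of all genes at 0.46, and B2m alone is listed in nearly all cells of both groups.

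The difference was also one of how many cells listed a gene. Of the 8 genes with a ratio 7 were listed in at least 20 percentage points more of the pretreated cells, against 36.7% of all genes, and B2m, already at its ceiling, was the exception. These 7 include H2-K1 and Tap1, which had entered only through pretreated cells. The median difference was 73.6 points where that of all genes was 14.7. H2-K1 was listed in 7.61% (3.11% to 15.1%) of naïve and 98.8% (93.6% to 99.97%) of pretreated cells. These shares were 14.1% and 98.8% for Psmb8, 18.5% and 95.3% for Psmb10, 17.4% and 92.9% for Psmb9, and 27.2% and 98.8% for H2-D1. Thinning each cell to 1122993 tags and applying the peak minimum again, which kept 76 naïve and 83 pretreated cells, gave H2-K1 7.89% and 98.8%, Psmb8 13.2% and 98.8%, and Tap1 3.95% and 50.6%.

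The genes listed in each single cell were also counted. These counts reflect the shares of cells listing each gene, and joint listing beyond those shares was not tested. A naïve cell listed a median of 2 of the 10 genes (0 to 6) and a pretreated cell a median of 7 (2 to 9). At least 5 genes were listed in 2 of 92 naïve and 83 of 85 pretreated cells, and at most 1 gene in 29 naïve and 0 pretreated cells. The naïve cells thus mostly showed B2m alone or with 1 or a few others, and the pretreated cells most of the pathway at once. Every one of the 46 pretreated cells that listed Tap1 also listed Psmb9 across the shared promoter, which 79 of the 85 cells did. In naïve cells 4 listed Tap1, 16 Psmb9 and 1 both. The main Tap1 and Psmb9 positions of a pretreated cell lay a median of 508 bp apart (120 to 1013).

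**Figure D3:**
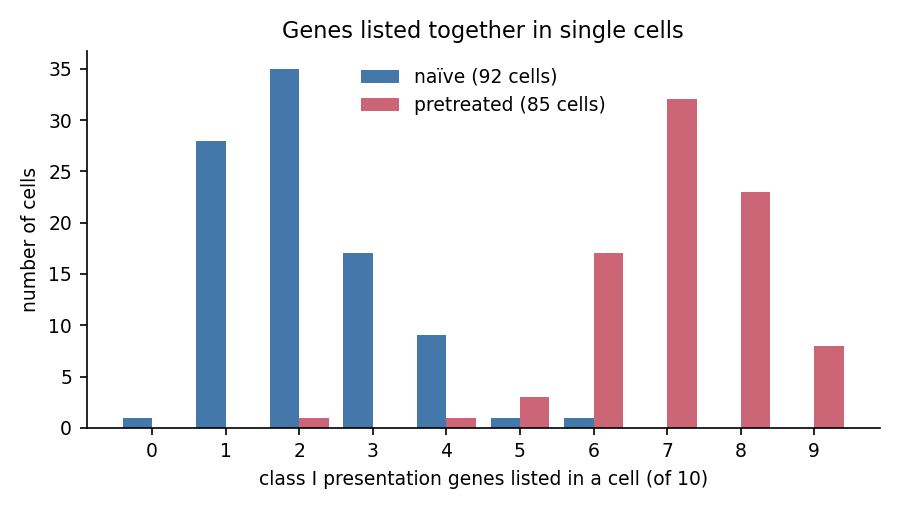
Number of cells (y axis) by how many of the 10 class I presentation genes they listed (x axis), for 92 naïve (blue) and 85 pretreated (red) cells. Naïve cells peak at 2 genes (35 cells) and pretreated cells at 7 genes (32 cells), with 2 naïve cells at 5 or more.

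The inducible subunits were set against the constitutive subunits that they replace, Psmb5, Psmb6 and Psmb7. Of the tags of these 6 genes, Psmb8, Psmb9 and Psmb10 held 3.82% (3.76% to 3.88%) among naïve cells and 37.2% (37.1% to 37.3%) among pretreated cells. The median cell had 0% and 38.7%. In 56 of 92 naïve cells all tags of the 6 genes came from constitutive subunits, as in 1 of 85 pretreated cells, and the inducible subunits held the majority in 1 naïve and 18 pretreated cells. By pair, the inducible share in naïve and pretreated cells was 5.21% and 91.4% for Psmb8 with Psmb5, 2.51% and 17.3% for Psmb9 with Psmb6, and 15.6% and 49.2% for Psmb10 with Psmb7. Psmb5 itself was lower in pretreated cells, 277 and 29.2 CPM (log2 ratio −3.25). Psmb5 shares 98.5% of its first bases, over 133 bases, with Gm3375, so its value is uncertain, and without Psmb8 and Psmb5 the shares were 3.56% and 25.1%.

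Start positions within the promoters were compared next, as the distance of the peak's window from the annotated start in build mm9. All tags of a 150 bp peak were placed at its centre, and peaks of a cell lay at least 300 bp apart. Statements on where transcripts began, and shares of tags at a position, therefore refer to peak centres. A position pools windows a few bp apart with the same deposited distance, and the window named is the most listed of them. B2m used 1 main position in both groups, 2 bp upstream of the annotated start (window chr2:121973347-121973496). It held 77.5% of naïve and 95.5% of pretreated B2m tags, and 99.02% and 99.9% lay within 50 bp of it. The named window alone held 61.5% and 86.2%. A second B2m position, 31 bp downstream, carried 7490 tags in 9 naïve cells (14.7% of naïve tags) and was listed in 0 pretreated cells. Its window overlaps the main one, so starts there in other cells may have been counted at the main position.

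H2-D1 transcripts began at the annotated start in both groups (window chr17:35399965-35400114), with 94.1% and 99.98% of tags within 50 bp. The exact window nevertheless differed by 1 or 2 bp between the groups. In naïve cells the window began at 35399967 in 22 of 25 cells and in pretreated cells in 0, whereas windows beginning at 35399965 and 35399966 were listed in 32 and 28 pretreated cells and 0 naïve cells. A window 4 bp downstream, beginning at 35399969, was listed in 1 naïve and 20 pretreated cells. Whether the peak positions differed for a technical reason was not tested.

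H2-K1 transcripts of pretreated cells began mainly 51 bp downstream of the mm9 RefSeq start, in 77 of 84 cells, with 51.3% of tags. The most listed window of this position (chr17:34137153-34137302, − strand) held 30.3% of tags, in 42 cells. A second group of H2-K1 positions lay 800 to 1000 bp downstream, in 63 pretreated cells with 41.7% of tags and in 1 naïve cell. The 7 naïve cells listed 7 different windows, so no leading naïve position can be given.

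For Psmb9 the leading position was 8 bp upstream (window chr17:34324209-34324358, − strand), in 31 pretreated cells with 40.8% of tags and in 3 naïve cells with 3.34%. In naïve cells 87.9% of tags lay within 50 bp of it, and in pretreated cells 89.1%. In naïve cells a position 41 bp upstream held more, 35.2%, from 2 cells. Psmb9 peaks were therefore centred over a broad stretch in both groups, in 11 windows of 16 naïve cells and 17 windows of 79 pretreated cells. Tap1, on the other strand, had its most used position 268 bp downstream (window chr17:34324695-34324844), with 17.8% of pretreated tags in 8 cells, and 40 different windows in 46 cells.

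Psmb8 and Psmb10 began downstream of their annotated starts, in exon 1 as annotated in their 5′ UTRs. For Psmb8 the leading position was 173 bp downstream (window chr17:34335239-34335388), and a 50 bp reach on either side of it took in 92.1% of naïve and 95.1% of pretreated tags. For Psmb10 it was 279 bp downstream (window chr8:108461939-108462088, − strand), with 84.7% and 86.6% within 50 bp. This position was the one listed in most cells, 21 of 81 pretreated and 1 of 17 naïve, with the named window in 11 and 1 of them. More tags lay 284 bp downstream, 41.5% against 2.99% in naïve and 16.1% against 13.7% in pretreated cells. Both genes thus used the same stretch in the 2 groups, though Psmb10 tags were spread over 34 windows of pretreated cells. The 5 Tap2 cells at its leading position, 36 bp downstream (window chr17:34341386-34341535), held 39.9% of its pretreated tags. Tapbp tags were scattered, in 17 and 31 windows, and 25.3% and 44.3% lay within 50 bp of the position listed in most cells, 177 bp downstream.

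**Figure D4:**
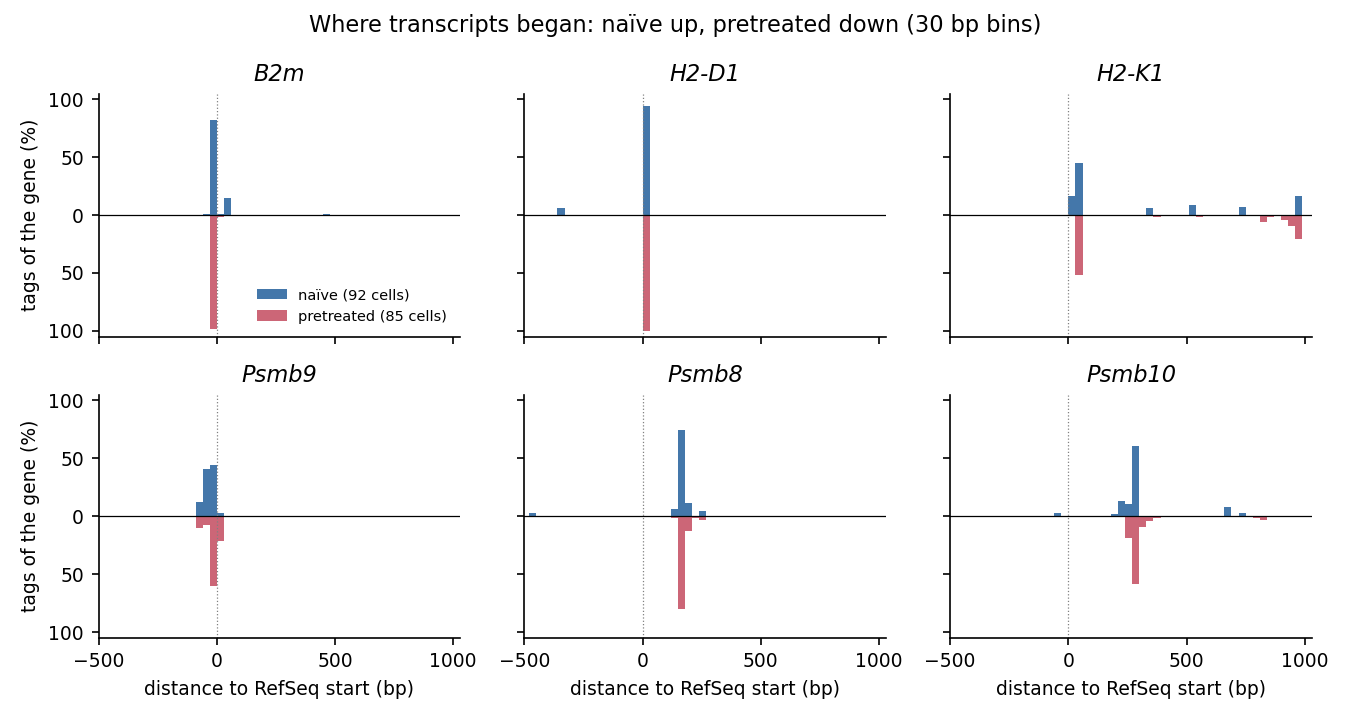
Percent of each gene's tags by distance of their peak's centre from the annotated RefSeq start in 30 bp bins, naïve upwards and pretreated downwards, for 6 genes. Peaks of B2m and H2-D1 lie mainly at the start, and those of Psmb9 spread around it. In naïve cells 14.7% of B2m tags lie in the bin from 30 bp downstream. For H2-D1 5.91% of naïve tags lie in the bin that begins at −360 bp. Peaks of Psmb8 and Psmb10 lead 173 and 279 bp downstream, and H2-K1 has a second cluster 800 to 1000 bp downstream.

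The deposited focus ratio measures how tightly the tags of a peak gather at its summit, so a lower value means a more spread peak. Over 4000 genes with at least 10 peaks in each group, its median was 0.961 in naïve and 0.902 in pretreated cells, a median change of −0.051 per gene. B2m differed more, with 0.793 and 0.477, and 0.225% of all genes had a change as low or lower. Psmb8 had 0.938 and 0.655, Psmb9 0.967 and 0.753, and Psmb10 0.987 and 0.790, with 0.4%, 2.85% and 3.85% of genes at or beyond their changes. H2-D1 (0.955 and 0.875) and Tapbp (0.967 and 0.934) lay within the bulk of genes. The 4 genes whose peaks spread most were higher in pretreated cells, as was H2-D1, with the largest log2 ratio of these genes (5.32) and a change of −0.08. Whether the spread goes with the level was not tested. The number of tags in a peak differed between the groups as well, and its part in the spread was not tested. Among B2m peaks of 1000 to 4000 tags the medians were 0.876 over 10 naïve and 0.447 over 23 pretreated peaks. Peak size still differed there, with medians of 1390.5 and 3343 tags, so these peaks cannot separate peak size from group.

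**Figure D5:**
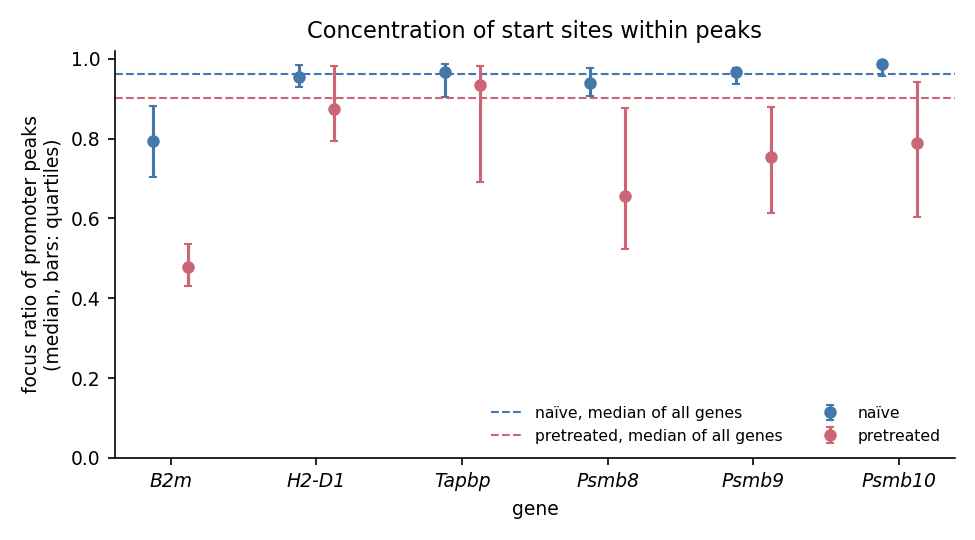
Median focus ratio (points) with quartiles (bars) of the promoter peaks of 6 genes in naïve (blue) and pretreated (red) cells, and the medians of all genes as dashed lines. B2m lies below the dashed lines in both groups, at 0.793 and 0.477, and Psmb8, Psmb9 and Psmb10 lie near or above the naïve line in naïve cells (0.938, 0.967 and 0.987) and below the lines in pretreated cells (0.655, 0.753 and 0.790).

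Some 5′ ends given to these genes lay far from their starts. Of the tags on the gene's strand, 19.5% of naïve and 14.4% of pretreated B2m tags lay more than 1000 bp from the annotated start. This part was 66.4% and 25.7% for H2-K1, 75.3% and 26.3% for Tap1, 55.2% and 32.99% for Psmb8, and 64.5% and 17.4% for Psmb10. For Psmb9 it was low in both groups, 8.80% and 9.96%. Apart from Psmb9, this share was larger in naïve cells for each of these genes. Counting windows at any distance lowered the log2 ratio of Tap1 to 2.64 and that of Psmb10 to 2.0, and both remained at least 2-fold higher.

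The other genes of the pathway are given by list, with the share of all genes past the same fold in parentheses. In each of the 5 lists with a ratio the median lay below 3.72, that of the class I genes. Of 10 chaperone and trimming genes 7 had a ratio, 3 of them at least 2-fold higher (30% of all genes) and 0 lower (11.4%), with a median log2 ratio of 0.18. The highest were Pdia3, a disulfide isomerase of the loading complex (300 and 729 CPM, log2 ratio 1.28), and the aminopeptidase Lnpep (12.7 and 29.2, 1.21). The lowest were Hspa5, an endoplasmic reticulum chaperone (−0.9997, just short of 2-fold lower), and the glucosidase subunit Ganab (−0.84). Of 7 activator and assembly genes of the proteasome 5 had a ratio, 1 was at least 2-fold higher (30% of all genes) and 0 lower (11.4%). This was Psme1, a subunit of the PA28 activator, with 111 and 783 CPM (2.82). Its partner Psme2 had 0.75, and the assembly chaperones Psmg2 and Psmg1 had 0.60 and −0.11, around a list median of 0.61. The constitutive subunits had a median of −0.57, with Psmb7 at 0.83, Psmb6 at −0.57 and 1 of 3, Psmb5, at least 2-fold lower (11.4% of all genes).

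Of 18 non-classical and other class I genes only 3 had a ratio, 2 of them at least 2-fold higher (30% of all genes) and 0 lower (11.4%). H2-M3, which presents formylated peptides, stood at 6.79 and 38.1 CPM (log2 ratio 2.49), and H2-T23, which presents leader peptides of other class I chains, at 4.65 and 17.01 (1.87). Both were under 10 CPM in naïve cells and so could enter only by being higher in pretreated cells. Their count therefore follows in part from the minimum. H2-Ke6, named for its place in the region and not itself a heavy chain, had −0.18. Of 16 transcription factors of class I genes 8 had a ratio, 3 of them at least 2-fold higher (30% of all genes) and 0 lower (11.4%), with a median of 0.54. Rela, an NF-kB subunit, was at 3.23 and 22.7 CPM (log2 ratio 2.81). Rela and another of the 3 higher genes were under 10 CPM in naïve cells and entered in the same way. Irf2 (−0.84) and Nfyb (−0.03) were lowest. None of 7 class II genes reached 10 CPM in either group, and they summed to 13.5 and 9.24.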

How the data were processed

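Start-site sequencing read the 5′ ends of polyadenylated RNA in 192 single cells, 1 deposited peak file per cell. Reads were aligned to mm9 with Bowtie2 and processed with HOMER, per the submitters' processing notes. Alignment settings, read filters and duplicate handling are not given in the sources used here. Peaks were called in each cell and on each strand, 150 bp wide, at least 300 bp apart and at least 200 tags per 10000000, per the file headers. The deposited signal gives tags per 10000000 of a cell's tags, and the deposited focus ratio is a fraction from 0 to 1, HOMER's measure of how closely tags gather at the summit.

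Tags were recovered as signal times the header total over 10000000, and all 1082504 peaks came within 0.066 of a whole number. The recovered 426263116 tags equal the headers' tags in peaks. Peaks were joined to the deposited windows within 2 bp, and 1713 peaks outside these tables were left out. In 2 matrices, 384 columns of values carried no sample names and were not used here. Cells under 10% of the median total (230562.75 tags) were left out. Levels are pooled tags scaled to CPM by the header totals. No length correction was needed, since an RNA gives 1 5′ end. The log2 ratio adds 0.5 tag to each sum, over genes that reached 10 CPM in naïve or pretreated cells (5112 genes) and had tags in both. Intervals are exact Poisson or binomial (Clopper-Pearson) at 95%. No count model was fitted, and no doublet caller was run.

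All 10 genes are named, with the 2 highest and 2 lowest ratios of each pathway list, except 1 gene that is not reported here. The genes and lists were chosen with earlier results of these data known. Gene strands came from GENCODE vM21, promoters from RefSeq on GRCm38.p6, whose coordinates were not mixed with those of mm9, and near copies from blastn 2.17.0. The ratio calculation was tested on simulated data. Python 3.11.15, numpy 2.4.6, pandas 2.3.3 and scipy 1.17.1 were used. Alternatives covered scaling, cells, distance, strand, gene table, minimum level and added tags.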

Additional observations from a re-analysis of the deposited data

How the results depend on the processing

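The median log2 ratio of the class I genes, 3.72 as reported, stayed above 0 under every alternative run. It was 3.55 with tags in promoter peaks as the denominator, 3.50 with median-of-ratios scaling, 4.10 without the highest cell of each gene, 4.96 over odd-numbered and 2.96 over even-numbered cells, 3.06 with windows at any distance, 3.46 with windows at distances listed in both groups and 3.19 with the GENCODE table. Without H2-K1 and H2-D1, chosen after seeing the data, it was 3.20. The number of genes at least 2-fold higher ran from 5 to 9, of 6 to 9 genes with a ratio. Only Tapbp reversed, to −0.29 with windows at distances listed in both groups. The inducible share of the 6 catalytic subunits' tags was 33.4 percentage points higher in pretreated cells. It was 34.4 points without the highest cell of each gene, 40.04 over odd-numbered and 27.9 over even-numbered cells, 26.2 within 200 bp, 36.7 at any distance, 48.3 with windows at distances listed in both groups, 29.5 with the GENCODE table and 21.6 without Psmb8 and Psmb5, all chosen after seeing the data. The causes of these shifts were not tested. No paired analysis was possible because the cell numbers only name cells and nothing was tested. The peak minimum hides genes at low levels, so a gene listed at 0 may still be transcribed.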

Other observations

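Peaks on the opposite strand were counted in the windows that carry a class I gene's name. At the promoter shared by Tap1 and Psmb9, each gene's own peaks were therefore not counted as antisense of the other. Counted in this way, antisense peaks were rare. Tapbp was the exception, with 7.86 antisense CPM in 10 naïve cells and 7.75 in 14 pretreated cells. Its antisense level thus differed little between the groups.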
